A study of Mus musculus with 4 samples.

Results

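The genes described here are 7 proneural and neurogenic transcription factors of the basic helix-loop-helix (bHLH) family, Neurog2, Atoh7, Olig2, Neurod1, Neurod4, Bhlhe22 and Ptf1a, together with Insm1, a zinc finger factor of the same developmental step. They were listed by name, with earlier results of these data known, and are 8 of the 22690 genes of the deposited table. All 8 were among the 14480 genes tested, those whose normalized counts averaged 10 or more. The comparison was between GFP-positive cells labelled as Casz1 cKO (2 libraries) and GFP-negative cells labelled wild type (2 libraries), all sorted for a 4N DNA content from the retinas of C57BL/6 mice at postnatal day 2. Casz1 is a zinc finger transcription factor, and cKO stands for conditional knockout. GFP status and genotype differ together, so their parts in a difference cannot be told apart. The driver of the deletion and the number of animals per library are not stated in the sources. The cells had been kept for a short time in serum-free medium before RNA was taken.

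Proneural bHLH factors switch progenitors toward neuronal fates. They bind a short DNA word, the E-box, as dimers with the widely expressed E proteins, raise Notch ligands in the cell that holds them, and are followed by differentiation bHLH factors in the cells they commit. In the mouse retina Atoh7 gives competence for ganglion cells, Neurog2 and Olig2 mark progenitors close to their last division, Ptf1a directs horizontal and amacrine cells, and Neurod1, Neurod4 and Bhlhe22 act in photoreceptor, amacrine and bipolar differentiation. Insm1 is expressed transiently in cells that leave the cell cycle. Around birth the mouse retina makes mostly rods, with amacrine cells ending and bipolar cells beginning.

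What the 7 bHLH genes share in sequence is the stretch that codes for the DNA-contacting basic region, shown here because it is the reason they are read as a family. It was found in the translated GENCODE M21 transcripts on GRCm38 by a search for the residues N.RER.RM, where a point is any residue. The 48 coding bases from the start of the match are shown for each gene, and Insm1 had no match. The capitals mark the codon of the glutamate that contacts the E-box.
Neurog2: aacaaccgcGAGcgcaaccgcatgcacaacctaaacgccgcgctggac
Atoh7: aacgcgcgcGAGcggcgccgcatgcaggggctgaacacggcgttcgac
Olig2: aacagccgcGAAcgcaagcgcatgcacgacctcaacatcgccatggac
Neurod1: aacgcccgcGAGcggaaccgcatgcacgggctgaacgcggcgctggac
Neurod4: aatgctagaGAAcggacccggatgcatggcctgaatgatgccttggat
Bhlhe22: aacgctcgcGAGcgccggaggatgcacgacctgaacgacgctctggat
Ptf1a: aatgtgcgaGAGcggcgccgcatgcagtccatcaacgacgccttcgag
Of the 48 bases, 21 are the same in all 7 genes, and part of that likeness is set by the residues searched for. The closest of the 21 pairs are Atoh7 and Neurod1, with 41 identical bases, and the farthest are Neurog2 and Neurod4, with 28. Neurod1 and Neurod4 share 33. The stretches lie at chr3:127634080-127634127 for Neurog2, chr10:63100294-63100341 for Atoh7, chr16:91226739-91226786 for Olig2 and chr3:18055451-18055498 for Bhlhe22, and at chr2:19446356-19446403 for Ptf1a, all on the plus strand. Those of Neurod1 and Neurod4 lie on the minus strand at chr2:79454672-79454719 and chr10:130271080-130271127.

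The 250 bases before the annotated start were read from RefSeq for GRCm38.p6, where 6 of the 8 genes matched. They were searched for the E-box CANNTG, which reads the same on both strands. It was present in 2 of the 6 genes, Atoh7 and Neurod1, while 58.1% of the 13625 promoters of tested genes hold at least 1. Atoh7 had 3, as 7.57% of those promoters do or exceed. The word TATAA on the gene's own strand, searched for in the last 60 bases after the windows had been read, was present in 5 of the 6 genes, all but Neurod4, against 2.87% of the promoters of tested genes and 5.57% of all 32851 in the table. Counting the other strand (TTATA) as well, the shares were 5 of 6 genes and 3.66% of the promoters of tested genes. Shown are Neurog2 and Neurod1, the bHLH genes whose groups did not overlap, and Atoh7, with E-boxes and TATAA in capitals.
Neurog2: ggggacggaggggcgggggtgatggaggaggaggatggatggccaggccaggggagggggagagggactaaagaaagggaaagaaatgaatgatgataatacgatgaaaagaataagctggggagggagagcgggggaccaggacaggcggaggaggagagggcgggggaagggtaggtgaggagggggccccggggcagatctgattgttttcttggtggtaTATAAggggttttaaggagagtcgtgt
Neurod1: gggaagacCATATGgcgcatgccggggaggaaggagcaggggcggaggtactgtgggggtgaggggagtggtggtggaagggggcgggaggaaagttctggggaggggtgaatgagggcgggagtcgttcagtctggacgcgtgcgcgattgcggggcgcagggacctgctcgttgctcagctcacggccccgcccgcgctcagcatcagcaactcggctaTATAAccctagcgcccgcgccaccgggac
Atoh7: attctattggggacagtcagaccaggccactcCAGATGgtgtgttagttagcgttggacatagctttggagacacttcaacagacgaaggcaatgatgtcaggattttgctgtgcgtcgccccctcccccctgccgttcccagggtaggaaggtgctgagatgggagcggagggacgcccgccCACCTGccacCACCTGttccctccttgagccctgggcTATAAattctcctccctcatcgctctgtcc
They lie at chr3:127632886-127633135 (plus strand), chr2:79456637-79456886 (minus strand) and chr10:63099535-63099784 (plus strand). No E-box overlaps a TATAA in them. The first base of TATAA lies 27 bases before the start in Neurog2, 29 in Neurod1 and 30 in Atoh7. In Olig2 and Ptf1a, not shown, it lies 8 and 52 bases before the start. The E-box letters of Atoh7 begin 218, 67 and 57 bases before its start. A match of letters is a description of the window and says nothing about binding.

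Depth and the libraries set limits on every value below. Each column name carries 1 of 2 numeric tags, each shared by 1 library of each group and called A and B here. Reads in genes numbered 22326119 in cKO library A and from 75832360 to 89473701 in the others. Library cKO A also stood apart across the tested genes, with Pearson correlations of 0.902 to 0.918 with the others on the log2 scale, against 0.988 to 0.993 among those. Fits without it are given beside the genes whose values it moves most. The targeted gene, Casz1, had normalized read counts of 8687 and 10772 in cKO libraries A and B, against 13162 and 11995 in wild-type A and B. Its log2 fold change, cKO over wild type, was −0.38 ± 0.19 (standard error; limma, adjusted p = 0.771), and reads outside a deleted part are counted too, so the level does not measure the deletion. The study describes 2 independent experiments, but no label says which animals a library came from, so p-values measure the spread between these libraries.

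All 8 genes were detected in every library, and their levels spanned a wide range. Levels of different genes are compared per length, as reads scaled to exon length and to the total reads in genes (RPKM), over all 4 libraries. Neurod1 had the highest mean, 133 ± 28.2 RPKM (SD, n = 4), and Neurod4 followed with 105 ± 12.6 RPKM. Their ranges, 98.7 to 162 for Neurod1 and 95.9 to 123 for Neurod4, overlapped, although Neurod1 was the higher of the pair within every library. Insm1 came next with a mean of 57.4 ± 0.809 RPKM, the smallest spread relative to its level of the 8, and then Neurog2 with 27.7 ± 2.88 RPKM. Olig2 had 18.5 ± 2.09 RPKM, and neither of these neighbours in the order overlapped the next. Ptf1a, with 15.1 ± 1.15 RPKM, and Bhlhe22, with 13.4 ± 1.41 RPKM, overlapped each other, although Ptf1a was the higher within every library. Atoh7 was the lowest by far, at 1.74 ± 0.300 RPKM, and did not overlap Bhlhe22. Neurod1 and Neurod4 thus stood above the proneural factors Neurog2, Olig2 and Atoh7, and the ganglion cell competence factor was last.

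**Figure D1:**
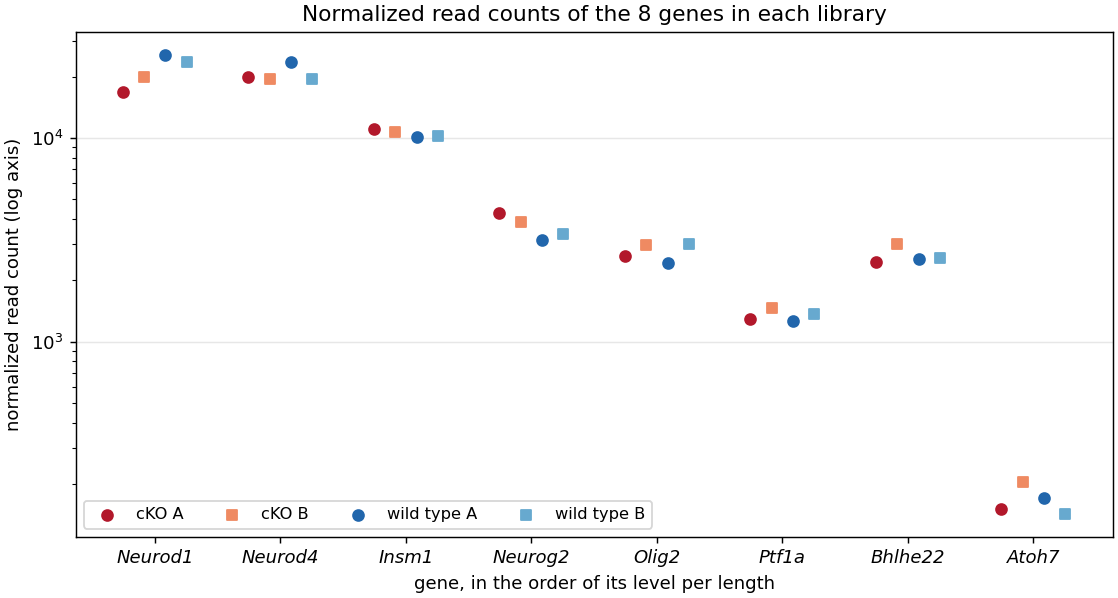
Normalized read counts (log axis) of the 8 genes in each library, with cKO A and B in red and orange and wild type A and B in dark and light blue, ordered by level per length. Both cKO points lie below both wild-type points for Neurod1 (16801 and 19925 against 25482 and 23592) and above them for Neurog2 and Insm1.

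Of the 8 genes, 0 passed the test between cKO and wild type (limma, adjusted p of 0.771 to 0.922), and neither did any other gene, 0 of 14480 or 0.0%. At an unadjusted p under 0.05 there were 0 of the 8 and 274 of all genes (1.89%). The edgeR quasi-likelihood test on the recovered reads called 0 of the 14480 (0.0%), where 208 had an unadjusted p under 0.05 (1.44%). DESeq2 called 1 gene (0.00691%), none of the 8. Its unadjusted p was under 0.05 for 369 genes (2.55%), of which Neurod1 was the 1 among the 8. The median log2 fold change of the 8 was 0.08, with 6 higher and 2 lower in cKO, against −0.03 over all tested genes, where 6769 were higher and 7711 lower. That tally depends on the scaling and on single libraries. With each library scaled to its total reads in genes, as the per-length levels are, it was 4 higher and 4 lower, with a median of 0.0010 against −0.11 over all tested genes. Without cKO library B the median was −0.040, with 2 higher and 6 lower, and without cKO library A it was 0.15. With each library rescaled to the same median it was 0.17, against 0.06 over all tested genes. The median size of the change, whatever its sign, was 0.12 for the 8 and 0.26 for all tested genes. The groups did not overlap for 3 of the 8, close to the 39.5% of all tested genes. Neurog2 and Insm1 lay higher in both cKO libraries, as 17.2% of tested genes did, and Neurod1 lay lower, as 22.3% did. In bulk RNA fewer cells of a type and less RNA per cell cannot be told apart.

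**Figure D2:**
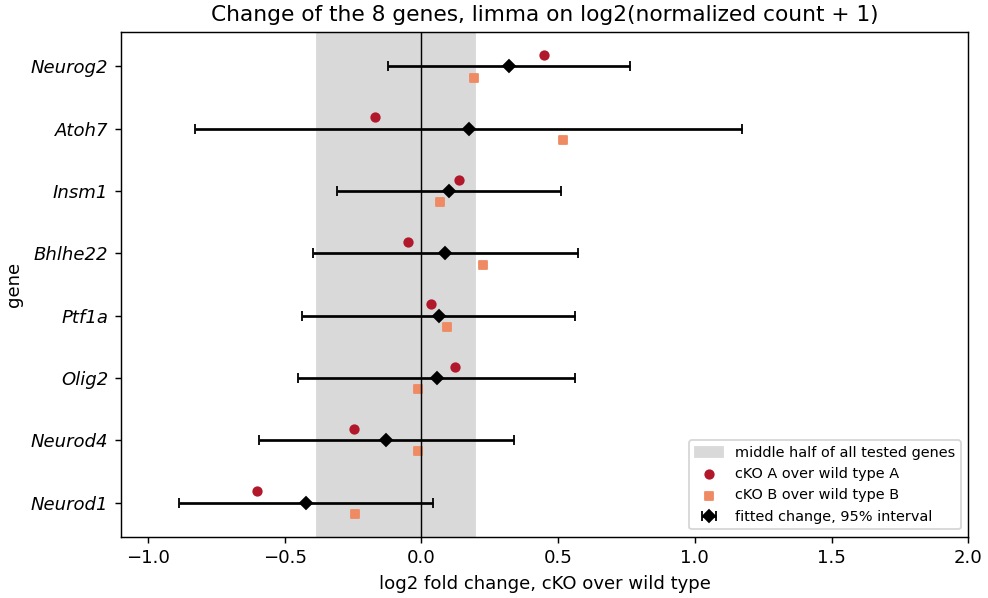
Fitted log2 fold change of each gene, cKO over wild type (black diamonds, bars are 95% intervals from limma), with the ratio within tag A (red circles) and within tag B (orange squares); the grey band is the interquartile range of all 14480 tested genes, from −0.38 to 0.20. All 8 intervals include 0, and Neurod1 and Neurog2 lie outside the grey band.

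Among the proneural factors, Neurog2 (chr3:127633135-127635631, plus strand) measured 4289 and 3851 normalized counts in cKO A and B, against 3139 and 3375 in wild-type A and B. Both cKO libraries were thus above both wild-type ones. The means were 4070 ± 309.6 in cKO and 3257 ± 166 in wild type (SD, n = 2 each), and the fitted log2 difference was 0.32 ± 0.18 (SE; limma, adjusted p = 0.771). Its 95% interval runs from −0.12 to 0.76, and 41.5% of the tested genes had a change of at least this size. The log2 ratio was 0.45 within tag A and 0.19 within tag B.

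Atoh7 (chr10:63099651-63101279, plus strand) had 151 and 205 normalized counts in cKO A and B, against 170 and 143 in wild-type A and B. The groups overlapped, and the tags went opposite ways, with log2 ratios of −0.17 for A and 0.52 for B. The value of cKO A stands on 54 reads, for which the exact Poisson 95% interval is 113 to 197 normalized counts, and that interval contains both wild-type values. Such intervals cover counting error only. The log2 fold change was 0.17 with a 95% interval of −0.83 to 1.17, so this depth and spread would not separate a fold of 0.563 from one of 2.26. Without cKO library B it was −0.05, and without cKO library A it was 0.39.

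Olig2 (chr16:91225457-91228677, plus strand) had 2643 and 2990 normalized counts in cKO A and B, against 2428 and 3014 in wild-type A and B. Tag B was higher than tag A in both groups, and the groups overlapped. The log2 fold change was 0.06 (95% interval −0.45 to 0.56), the smallest of the 8 in size, and its sign was not stable. It was −0.03 without cKO library B, −0.10 without wild-type library A, 0.14 without cKO library A, and −0.02 with each library scaled to its total reads in genes. Olig2 also marks oligodendrocyte precursors. Of 5 markers of that lineage, Sox10, its defining factor, had 0 and 5.29 normalized counts in cKO A and B, against 22.8 and 5.52 in wild-type A and B. Sox10 thus fell under the level filter. The summed level of the 5 markers was 8.08 to 9.80 RPKM in cKO and 10.4 to 10.7 RPKM in wild type, and 2 of the 5 were at 0 in cKO A. Of the 4 tested, 1 was higher and 3 lower, with a median log2 fold change of −0.52.

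Neurod1, a differentiation factor of photoreceptors and amacrine cells (chr2:79452521-79456751, minus strand), had the largest change of the 8 in size. It had 16801 and 19925 normalized counts in cKO A and B, against 25482 and 23592 in wild-type A and B. Both cKO libraries lay below both wild-type ones. The means were 18363 ± 2209 in cKO and 24537 ± 1337 in wild type (SD, n = 2 each), so the cKO mean was 74.8% of wild type. The fitted log2 difference was −0.42 ± 0.19 (SE), with a 95% interval of −0.89 to 0.04 (limma, adjusted p = 0.771), and 30.0% of tested genes had a change of this size or more. The log2 ratio was −0.60 within tag A and −0.24 within tag B. Without cKO library A it was −0.30 (limma, adjusted p = 1.0), where 54 of 14480 genes were called (0.373%), 52 of them lower in cKO (0.359%). Without cKO library B it was −0.55 and passed (adjusted p = 0.0312), in a fit that calls 5768 of the 14480 genes (39.8%), 3897 of them lower in cKO (26.9%), and assumes that the lone cKO library varies like the wild-type pair. Neurod1 shares 201 exon bases with Cerkl on the same strand, which had a mean of 642 normalized counts over the 4 libraries. It also shares 154 exon bases with Gm26755, a noncoding RNA gene on the other strand. The strand option of counting is not stated, so reads of Neurod1 and Gm26755 over those bases cannot be told apart.

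Neurod1 was lower together with rod genes. Of 8 rod precursor markers, 8 were lower in cKO at a median log2 fold change of −0.67, with a summed level of 229.9 to 293 RPKM in cKO and 427 to 469 RPKM in wild type, and none was at 0. Microglial markers were lower too: 8 of 8, with summed levels of 8.67 to 66.3 RPKM in cKO and 147 to 149.9 RPKM in wild type, and none at 0. In those libraries Csf1r, a defining microglial receptor, had 346 and 2293 normalized counts in cKO A and B, against 6021 and 4788 in wild-type A and B. The part of either cell type in the Neurod1 difference was not tested.

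Neurod4, which acts with other bHLH factors in amacrine and bipolar cells (chr10:130268152-130280240, minus strand), had 20008 and 19384 normalized counts in cKO A and B, against 23719 and 19563 in wild-type A and B. The cKO values overlapped the wild-type ones, and only wild-type A stood above the other 3. The log2 fold change was −0.13 (95% interval −0.60 to 0.34), with −0.25 within tag A and −0.01 within tag B, and it was 0.01 without wild-type library A. The difference between the changes of Neurod1 and Neurod4 was not tested.

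Bhlhe22, a factor of amacrine and cone bipolar subtypes (chr3:18054174-18057517, plus strand), had 2467 and 3021 normalized counts in cKO A and B, against 2554 and 2586 in wild-type A and B. The 2 cKO libraries lay on either side of the wild-type pair. The log2 fold change was 0.09 (95% interval −0.40 to 0.57), with −0.06 without cKO library B, 0.23 without cKO library A and 0.01 with scaling to total reads in genes. Ptf1a (chr2:19445663-19447501, plus strand) had 1296 and 1460 in cKO A and B, against 1266 and 1369 in wild-type A and B. The groups overlapped, at a log2 fold change of 0.06 (95% interval −0.44 to 0.56). It was −0.02 without cKO library B, 0.15 without cKO library A and −0.01 with scaling to total reads in genes. Ptf1a shares 609 exon bases with an antisense gene, Ptf1aos. Since the sources used here do not say whether counting used strand, reads of the pair cannot be told apart.

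Insm1 (chr2:146221921-146225020, plus strand) had 11106 and 10732 normalized counts in cKO A and B, against 10099 and 10252 in wild-type A and B. Both cKO libraries were above both wild-type ones by a small margin. The means were 10919 ± 265 in cKO and 10175 ± 108 in wild type (SD, n = 2 each), and the log2 fold change was 0.10 with a 95% interval of −0.31 to 0.51 (limma, adjusted p = 0.828). The log2 ratios were 0.14 within tag A and 0.07 within tag B. A change of this size or more was found in 79.0% of tested genes, and with scaling to total reads in genes the value was 0.03.

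The summed level of the 8 was 327 and 363 RPKM in cKO A and B, against 413 and 385 RPKM in wild-type A and B, each scaled to the library's total reads in genes. Shares of that sum and ratios between the 8 are taken within a library and do not depend on scaling between libraries. Neurod1 made up 30.2% and 34.0% of that sum in cKO A and B, against 39.3% and 38.8% in wild-type A and B. Neurog2 made up 9.45% and 8.06% in cKO, against 5.93% and 6.80% in wild type. The share of Neurod4 overlapped, with 29.3% and 27.0% in cKO against 29.8% and 26.3% in wild type. Each share depends on the others, so a lower Neurod1 share raises the rest. The ratio of Neurog2 to Neurod1, a pair chosen after its values were seen, was 0.313 and 0.237 in cKO A and B, against 0.151 and 0.175 in wild-type A and B. All cKO values of this ratio were above the wild-type ones. That follows from the values above, with Neurog2 higher and Neurod1 lower in both cKO libraries, and is no further result. The smallest two-sided p an exact permutation of 2 against 2 libraries can give is 0.333.

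**Figure D3:**
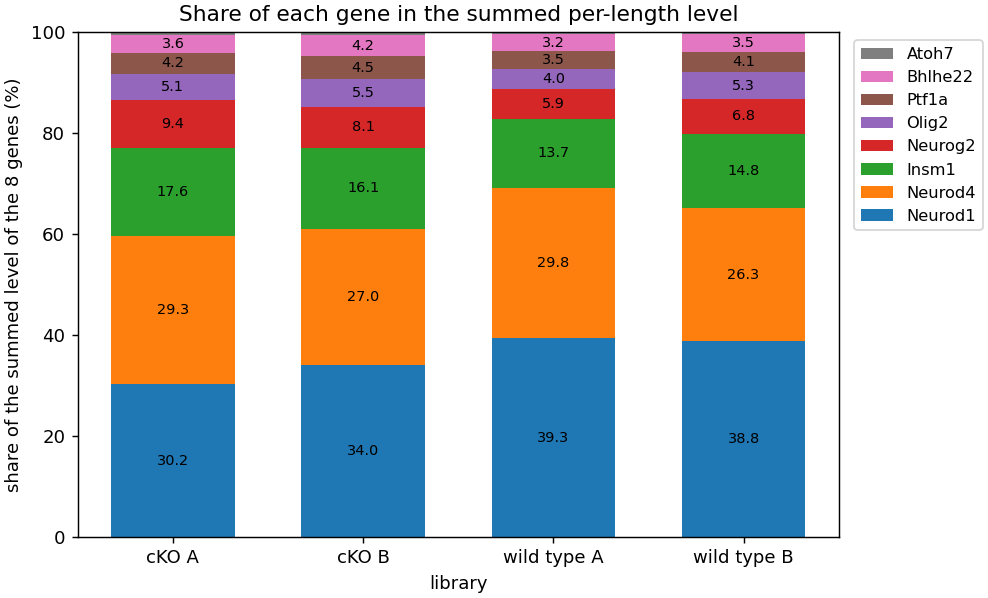
Share of each gene (%) in the summed per-length level of the 8 genes, 1 bar per library. The Neurod1 block at the base is 30.2% and 34.0% in cKO A and B, against 39.3% and 38.8% in wild-type A and B, while the Neurod4 block above it overlaps between the groups.

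The members also differed in how they varied across the 4 libraries. The distance between 2 genes was taken as the Euclidean distance of their log2 values, each centred on its mean over the 4 libraries. Bhlhe22 and Ptf1a were the closest of the 28 pairs, at 0.11, and Neurog2 and Neurod1 the farthest, at 0.81. Neurod1 lay nearer to Neurod4, at 0.38, than to any other of the 8. Among 11019 other genes (11020 for Atoh7) with a mean of at least 200, the nearest to Neurod1 were Adat1 (0.04), Arfgef2 (0.05) and Unc119 (0.06), the last a photoreceptor protein that carries lipidated cargo. The nearest to Neurog2 were Ppp1r11, Sdhb and Pls3, at 0.02 to 0.03, and the nearest to Insm1 were Unc50, Aaas and Hspa9, all at 0.01. For Atoh7 they were Dcaf12l1, Rab3b and Trim56, at 0.12 to 0.15. Olig2 was nearest to Topbp1, Rab5a and Eif1b, Neurod4 to Ppp1r10, Gbf1 and Atp6v0a2, Bhlhe22 to Zfp593, Itgb1bp1 and Tmem81, and Ptf1a to Mrto4, Cxx1b and Tfam. With 4 libraries such likeness is a description of these values.

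Partners and relatives of the 8 genes gave no call either. Of 18 listed genes, E proteins, other bHLH genes and Insm2, 11 were tested, 0 passed, 5 were higher and 6 lower, and the median log2 fold change was −0.00. The E protein genes Tcf3, Tcf4 and Tcf12 had log2 fold changes of 0.20, 0.14 and −0.00. Nhlh1 had −0.50 and Insm2, a relative of Insm1, had −0.23. Neurog3 and Ferd3l had no reads in any library, and Atoh1, Neurod6, Olig3, Bhlhe23 and Ascl2 fell under the level filter.

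Genes that act with or after proneural factors were split. Of 24 tested, 0 passed, 10 were higher and 14 lower, with a median log2 fold change of −0.09 against −0.03 over all tested genes. The median was −0.23 within tag A and 0.08 within tag B, and it was 0.03 without cKO library A. Prdm1 and Otx2, regulators of photoreceptor fate, were lower in both cKO libraries, and Prdm1 is also among the rod precursor markers. Prdm1 had 9827 and 12266 normalized counts in cKO A and B, against 16306 and 13675 in wild-type A and B, and a log2 fold change of −0.44. Otx2 had 28239 and 35662 in cKO A and B, against 43847 and 39800 in wild-type A and B, and a log2 fold change of −0.40. Tubb3, a neuronal tubulin, had a log2 fold change of 0.32, with 25700 and 22393 in cKO A and B, against 19146 and 19211 in wild-type A and B. Myt1, a zinc finger factor of early neurons, had −0.32. Among the Notch genes of this list the log2 fold changes were −0.14 for the ligand Dll1, 0.22 for Dll3, −0.09 for Dll4, 0.24 for the modifier Mfng and 0.20 for the antagonist Hes6.

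Fate genes downstream of the members followed no common direction outside photoreceptors. Of 7 genes of the ganglion cell path after Atoh7, 4 were higher and 3 lower with a median log2 fold change of 0.01. Leaving out cKO library A gave a median of 0.41, and leaving out cKO library B gave −0.40. Gap43, an axon growth protein, had 2163 and 2413 normalized counts in cKO A and B, against 1662 and 1995 in wild-type A and B. Pou4f2, a ganglion cell factor, overlapped between the groups, with 224 and 150 in cKO A and B, against 79.0 and 165 in wild-type A and B. Ebf1 had a log2 fold change of −1.42, which rests on cKO A, where it had 33.5 normalized counts, against 260 in wild-type A. The tag B values were close, with 457 in cKO B against 436 in wild-type B.

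Of 7 genes after Ptf1a, 3 were higher and 4 lower, with a median of −0.02. The amacrine and horizontal factors Tfap2a, Tfap2b and Prdm13 had log2 fold changes of −0.02, 0.03 and −0.03, and Gad1, a GABA synthesis enzyme, had −0.29. Pax2 stood apart from the list at a log2 fold change of −2.99, with 11.2 and 76.7 normalized counts in cKO A and B, against 322 and 184 in wild-type A and B. That value rests largely on cKO A, where Pax2 had 4 reads: the log2 ratio was −4.73 within tag A and −1.25 within tag B. In the retina Pax2 is known as a marker of astrocytes and the optic stalk. Of 7 tested photoreceptor and bipolar genes, 7 were lower, with a median of −0.49, and 0 passed over all genes in limma. Prdm8, the least changed of them, had a log2 fold change of −0.02, and its groups overlapped. Its log2 ratio was −0.25 within tag A and 0.22 within tag B. Vsx1, also listed, fell under the level filter. Nr2e3, a rod factor, had 7558 and 10668 normalized counts in cKO A and B, against 21789 and 19652 in wild-type A and B, a log2 fold change of −1.20. Crx, Nrl and Rxrg had −0.60, −0.55 and −0.49. Crx, Nrl, Nr2e3 and Rcvrn of this list are also among the rod precursor markers above.

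**Figure D4:**
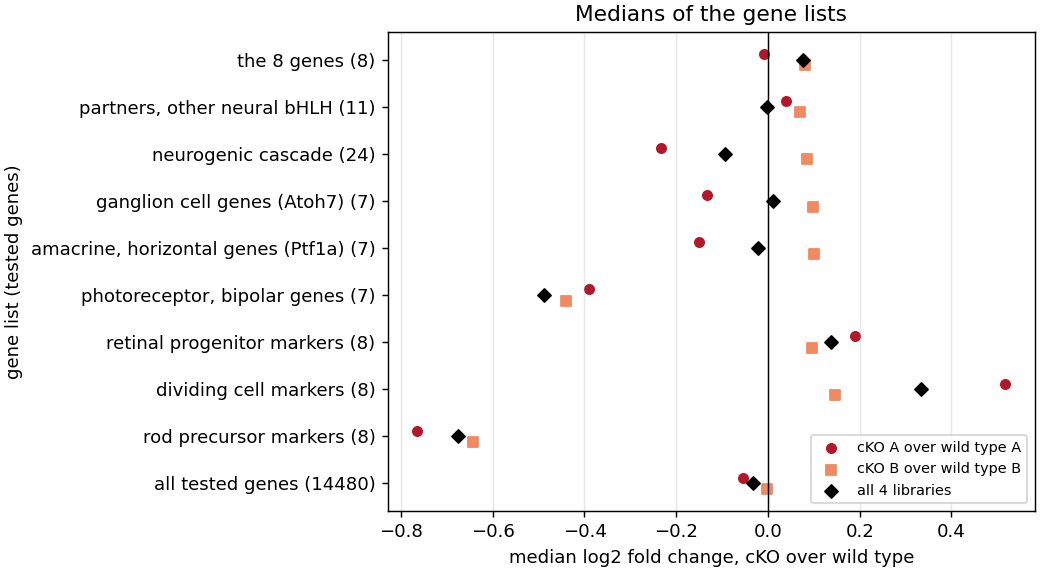
Median log2 fold change, cKO over wild type, of each gene list over all 4 libraries (black diamonds), within tag A (red circles) and within tag B (orange squares), with the number of tested genes in brackets. The 8 genes lie at 0.08, near the median of all tested genes at −0.03. The photoreceptor and bipolar genes and the rod precursor markers lie at −0.49 and −0.67 in the 4-library fit and below 0 within both tags. Nrl, Nr2e3, Crx and Rcvrn are in both of those lists.

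The labelled cell type was checked against its markers. All 8 retinal progenitor markers and all 8 markers of dividing cells were present in every library. Their summed levels were 762 to 776 RPKM in cKO against 668 to 724 RPKM in wild type for progenitors, and 608 to 620 RPKM in cKO against 510 to 571 RPKM in wild type for dividing cells. The medians of their log2 fold changes were 0.14, with 7 of 8 higher, and 0.33, with 7 of 8 higher. Within tags A and B the medians were 0.19 and 0.10 for progenitors, and 0.52 and 0.15 for dividing cells. The lower ones were Pax6, at −0.15, and the proliferation marker Mki67, at −0.51. Mki67 had 21523 and 57702 normalized counts in cKO A and B, against 43005 and 58941 in wild-type A and B. The part of these markers in the values of Neurog2 and Insm1, which were higher in the same libraries, was not tested. Ganglion cell markers had summed levels of 19.5 and 44.7 RPKM in cKO A and B, against 23.2 and 41.8 RPKM in wild-type A and B, so they were higher under tag B in both groups, and the groups overlapped. Amacrine and horizontal markers overlapped, at 102 to 104 RPKM in cKO and 99.1 to 120 RPKM in wild type. Endothelial markers also overlapped in summed level, at 95.9 and 80.2 RPKM in cKO A and B, against 91.5 and 80.7 RPKM in wild-type A and B. Of 6 endothelial markers 4 were at 0 in cKO A, the library with the fewest reads, and none in the other libraries. The sum in cKO A thus rests on the other markers alone, so overlapping sums do not show equal endothelial content. Among the 4 endothelial markers tested, 2 were higher and 2 lower. Their median log2 fold change was −1.11, with −1.52 within tag A and −0.28 within tag B.

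An adjusted p under 0.05 was given to 51 of 17477 genes (0.292%) in the authors' deposited table, and to 0 of the 8. Nr2e3 and Pax2, which did not pass in limma, were among those 51, with deposited adjusted p of 0.0118 and 0.0339. In the authors' deposited table the adjusted p of all 8 was 1.00, and the lowest unadjusted p among them was that of Neurod1.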

How the data were processed

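The submitters' processing notes name FastQC, TopHat, HTSeq, DESeq and the mouse build mm10. They give no version, and the strand option of counting is not stated in the sources. The authors deposited normalized read counts, used here as a signal for each gene in each library; the values show 1 scaling factor for each library. The deposited table also gives a p-value and an adjusted p-value for each gene. Of the values, 100% came out as whole multiples of 1 read within 0.01 reads, so reads were recovered. A count of 3 reads stands for 8.38 normalized counts in cKO A and 1.98 to 2.28 in the others. Wild-type columns were matched to samples by the header. Both cKO columns are headed replicate 2 and were assigned to the group only.

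The main test was limma on log2(normalized count + 1) with a mean-dependent prior, two-sided, over genes with a mean of at least 10, with Benjamini-Hochberg adjustment at 0.05; it was tested on simulated data. A fold change is a difference of means on that scale, cKO minus wild type, and low genes are understated. Intervals are 95% intervals from the moderated fit, which has 2 residual degrees of freedom before moderation. Exon lengths come from GENCODE M21, which holds 21875 of the 22690 gene identifiers. The 8 genes and all lists were chosen with earlier results of these data known. Genes named in a list are up to 4 of the lowest p with a mean of at least 50, and further list genes were named for their role after their values were seen. Some list genes that this rule names are not reported here. Neighbours are the 3 nearest genes with a mean of at least 200. Alternatives were pseudocounts of 0.5 and 5, other filters, median rescaling, no trend, edgeR, DESeq2, a replicate block, leaving out each library and, chosen after seeing the data, scaling to total reads in genes. R 4.3.3, limma 3.58.1, edgeR 4.0.16, DESeq2 1.42.0 and Python 3.11.15 were used.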

Additional observations from a re-analysis of the deposited data

How the results depend on the processing

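Of the 8 genes, 3 kept their sign under all 14 alternatives: Neurog2, Neurod1 and Insm1. The log2 fold change ranged over left-out libraries from 0.24 to 0.40 for Neurog2, −0.55 to −0.30 for Neurod1, 0.08 to 0.13 for Insm1, −0.047 to 0.39 for Atoh7, −0.10 to 0.21 for Olig2, −0.27 to 0.0096 for Neurod4, −0.059 to 0.23 for Bhlhe22 and −0.022 to 0.15 for Ptf1a. Signs turned without cKO library B for Atoh7, Bhlhe22, Ptf1a and Olig2 (−0.033), and without wild-type library A for Olig2 (−0.10) and Neurod4. They also turned for Olig2 (−0.019) and Ptf1a (−0.011) with each library scaled to its total reads in genes, an alternative chosen after seeing the data, under which the median of the 8 was 0.0010, that of partners −0.078 and that of photoreceptor and bipolar genes −0.56. The cause was not tested. The median of the 8 ranged from −0.040 to 0.15 over left-out libraries and was 0.17 with each library rescaled to the same median, which moves the median of all genes to 0.06. The count of the 8 that passed was 0 to 1 and that of all genes 0 to 5768 over left-out libraries, and DESeq2 called 1 gene, against 0 in the other fits with 4 libraries; leaving out cKO A gave 54. The median of the list of partners was −0.047 with no filter, 0.090 with rescaling and −0.085 to 0.29 over left-out libraries (0.22 without wild-type library A). That of the ganglion cell genes was −0.40 to 0.41 over left-out libraries, and that of the photoreceptor and bipolar genes was −0.40 with rescaling and −0.52 to −0.43 over left-out libraries (−0.45 without cKO library B). With the tag as a replicate block the fold changes were as before, 0 of 14480 genes were called, 1375 had an unadjusted p under 0.05, and the adjusted p of Neurod1 was 0.545 and that of Neurog2 was 0.600. No label ties a tag to a shared experiment; across genes, libraries with the same tag deviate from their group means with a correlation of 0.258. Depth limits Atoh7 most, with 54 reads in cKO library A.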
